A study of Mus musculus with 19 samples.

Results

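HMG box factors are nuclear proteins with 1 or more copies of the high mobility group domain, and their RNA levels were followed in mouse kidney after ischemia-reperfusion. The members were the genes that the authors' transcription factor table assigns to the family HMG with a percent identity of at least 95 to their best database match. The table listed 158 HMG entries of any identity, and 47 of them reached that identity. Of these 47, 44 were found in the table of 19287 expression entries, and 30 had at least 1 FPKM (fragment counts normalised for transcript length and library size) in at least 4 of the 19 libraries; 29 of these are described here. The whole-kidney RNA came from male C57BL/6 mice, an inbred strain, in 4 groups: sham-operated (sham, n = 5), ischemia-reperfusion (IR, n = 5), and ischemia-reperfusion after gavage with a Lactobacillus (IRLac, n = 5, and IRLacz, n = 4). Gavage lasted 4 weeks before the operation, and injured kidneys were collected on day 5 after injury. The day is listed here for the injured groups only. The abbreviation of Lactobacillus casei Zhang matches IRLacz, whereas Lactobacillus acidophilus was assigned to IRLac by elimination, since its abbreviation in the design differs by a letter. No gavage is stated for sham or IR, so a strain cannot be told apart from gavage as such. No age, ischemia time or pooling is given in the sources used here, and no label ties each library to a mouse of its own, so p-values measure the spread between libraries.

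The HMG box folds into an L-shaped array of helices that enters the minor groove of DNA and bends it. SOX and TCF/LEF proteins read a short AT-rich sequence with a single box, whereas HMGB, chromatin and mitochondrial members bind DNA with little or no sequence preference and shape chromatin, replication or the mitochondrial genome. In the kidney, SOX9 marks tubular epithelial cells that divide after injury, SOX4 and SOX11 act in nephron development, TCF/LEF proteins carry the signal of β-catenin to Wnt target genes, and HMGB1 is known as a danger signal when it leaves damaged cells.

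Tubular markers were present in every group. Summed FPKM of 8 proximal tubule genes was between 5640 and 6142 in sham libraries and between 2298 and 3216 in IR libraries, and no gene of this list was at 0. On a line from the sham mean (0%) to the IR mean (100%), the position was 45.9% for IRLacz replicate 1, 66.9% for IRLac replicate 3 and 77.4% to 97.5% for the 3 remaining IRLacz libraries. IRLacz replicate 1 and IRLac replicate 3 stand apart from their groups, and values without them are given beside the differences of Sox9, Sox4 and other members that they move. In whole-kidney RNA, fewer cells of a type and less RNA per cell cannot be told apart.

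Upstream sequences are shown for the members that rose by at least 1 on the log2(FPKM + 1) scale with injury, because these carry the main difference of the family. Of 7 such members, 5 had exactly 1 entry among the RefSeq promoters of build GRCm38.p6, Tcf7 had 2, and Sox9 is named only. Each line gives the 250 bases before the start of the gene, 5′ to 3′ on the gene's strand, at chr8:57511593-57511842 (Hmgb2, plus strand), chrX:71555667-71555916 (Hmgb3, plus strand), chr13:28953700-28953949 (Sox4, minus strand), chr12:27342719-27342968 (Sox11, minus strand) and chr14:47276858-47277107 (Wdhd1, minus strand). Capitals mark CCAAT and TTTGAA on either strand, the letters of the CCAAT box and of the cell cycle homology region found before many genes of the dividing cell.
Hmgb2: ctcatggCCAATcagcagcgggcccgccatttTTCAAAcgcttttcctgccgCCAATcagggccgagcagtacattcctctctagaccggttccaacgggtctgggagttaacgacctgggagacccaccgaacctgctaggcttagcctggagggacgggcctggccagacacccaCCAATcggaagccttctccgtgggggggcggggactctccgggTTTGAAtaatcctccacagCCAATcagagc
Hmgb3: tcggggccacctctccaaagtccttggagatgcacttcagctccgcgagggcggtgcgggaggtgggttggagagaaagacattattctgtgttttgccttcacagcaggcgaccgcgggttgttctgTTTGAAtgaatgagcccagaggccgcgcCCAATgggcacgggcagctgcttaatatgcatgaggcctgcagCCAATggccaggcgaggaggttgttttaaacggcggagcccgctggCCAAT
Sox4: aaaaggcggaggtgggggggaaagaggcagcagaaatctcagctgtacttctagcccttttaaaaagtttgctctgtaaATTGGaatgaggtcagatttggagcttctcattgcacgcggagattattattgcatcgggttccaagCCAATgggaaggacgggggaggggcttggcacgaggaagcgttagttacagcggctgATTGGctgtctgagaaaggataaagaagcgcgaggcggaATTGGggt
Sox11: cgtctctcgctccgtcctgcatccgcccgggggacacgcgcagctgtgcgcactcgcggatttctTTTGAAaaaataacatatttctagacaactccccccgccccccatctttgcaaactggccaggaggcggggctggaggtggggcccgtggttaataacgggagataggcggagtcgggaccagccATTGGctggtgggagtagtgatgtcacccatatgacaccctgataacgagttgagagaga
Wdhd1: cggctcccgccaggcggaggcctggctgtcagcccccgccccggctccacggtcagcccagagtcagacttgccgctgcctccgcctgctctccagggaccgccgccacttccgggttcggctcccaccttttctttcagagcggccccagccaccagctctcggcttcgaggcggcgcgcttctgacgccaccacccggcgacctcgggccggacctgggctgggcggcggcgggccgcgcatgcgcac

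The Hmgb2 window held 4 CCAAT matches, with first bases at -243, -198, -73 and -11 relative to the gene start, and 2 TTTGAA matches. The Sox4 window also held 4 CCAAT matches and no TTTGAA. Hmgb3 had 3 and 1, Sox11 had 1 and 1, and Wdhd1 had neither sequence in this window. Over the 34 entries of 21 members with an entry, 41.2% held CCAAT against 33.8% of all 32851 promoters, and 29.4% held TTTGAA against 16.0%. CTTTGA, the core that TCF/LEF proteins read, was in 14.7% of member entries and 13.8% of all, AACAAT, a SOX core, in 5.9% and 9.4%, and GCGGGAA, an E2F core, in 5.9% and 3.8%. Both strands were searched, CTTTGA and TTTGAA can overlap, and several entries belong to 1 gene. Member entries were also richer in GC (median 64% against 52.4%) and in CpG (18 against 6), and a match describes letters only.

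The comparison of IR with sham asked which members injury changed by day 5. In limma, 19 of the 29 described members were higher in IR and 4 were lower (adjusted p under 0.05), where 57.0% of all 13594 tested entries were higher and 18.6% lower. The members' shares, 65.5% and 13.8%, lay near these backgrounds. The same backgrounds apply to each count called in IR against sham below. No IR library overlapped a sham library for 17 members above and 2 below, against 48.6% and 15.2% of entries. Their median log2 difference was 0.51, and that of all entries 0.29. A difference of at least 1 was called for 7 members (24.1%), against 17.9% of entries. Sox9, Sox11, Tcf7 and Wdhd1, all among these 7, reached 1 FPKM in no sham library and so passed the filter only through injured kidneys. The share of 24.1% therefore rests in part on how members passed the filter. Without these 4, 15 of 25 members were higher and 4 lower, and their median difference was 0.356, nearer the 0.29 of all entries. All entries shifted with the scaling: the median of 0.29 became 0.0111 with median-ratio scaling, where 15 members were higher and 7 lower. It became -0.0609 with quantile scaling, where 13 members were higher and 10 lower. The 13 members called higher under the deposited values, both of these scalings and TPM were Sox9, Sox4, Sox11, Tcf7, Hmgb1, Hmgb2, Hmgb3, Gm21596, Wdhd1, Nsd2, Ssrp1, Hmg20b and Cic.

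**Figure D1:**
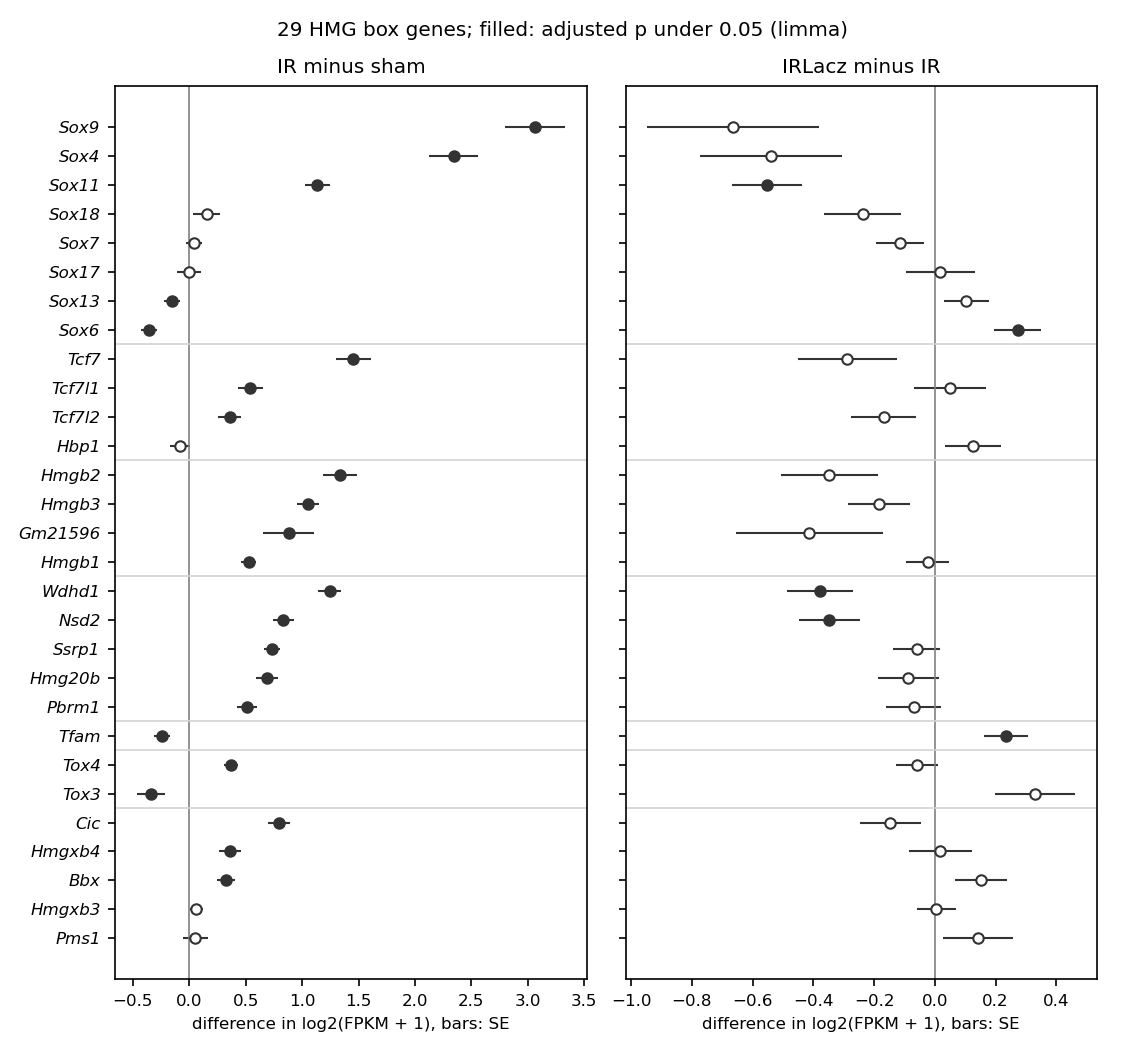
Difference in log2(FPKM + 1) for the 29 members, IR minus sham on the left and IRLacz minus IR on the right, with bars for the SE of the limma model and filled points for an adjusted p under 0.05; grey lines part the role groups. Sox9 (3.06) and Sox4 (2.34) lie farthest right in IR against sham, and 5 points are filled in IRLacz against IR.

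Among the SOX genes, Sox9, Sox4 and Sox11 rose. With the deposited values, the other 5 members differed from sham by less than 0.4 on the log2(FPKM + 1) scale. Sox9, whose protein acts in cartilage, in testis and in the repair of tubules, read 0.17, 0.34, 0.30, 0.19 and 0.24 FPKM in the sham libraries, so it stayed below 0.5 FPKM in all 5. In IR it read 11.36, 8.95, 10.9, 7.55 and 8.79 FPKM. No IR library came near a sham library, and the means were 9.51 ± 1.58 and 0.248 ± 0.0719 FPKM (SD, n = 5 each), or 3.06 higher on the log2 scale (SE 0.27, adjusted p = 1.687e-08 in limma). Sox9 was also far above sham in the gavaged groups, with 7.92, 6.95, 4.19, 12.31 and 8.25 FPKM in IRLac and 1.87, 6.34, 9.31 and 7.6 FPKM in IRLacz. The lowest injured library was IRLacz replicate 1, which still exceeded every sham library. From low to high the group means ran sham, IRLacz (6.28 ± 3.18), IRLac (7.92 ± 2.93) and IR, and the 3 injured groups overlapped.

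Sox4 and Sox11 belong to the SOXC subgroup, which acts in progenitor cells of many developing organs. Sox4, the most abundant SOX member in IR, read 6.72, 7.76, 9.88, 12.07 and 7.54 FPKM in sham and 57.69, 55.33, 52.07, 37.34 and 39.79 FPKM in IR. The groups did not overlap, and the log2 difference was 2.34 (SE 0.22, limma adjusted p = 3.877e-08). In IRLac it read 49.36, 41.15, 28.48, 46.89 and 35.5 FPKM, and in IRLacz 17.59, 33.78, 39.59 and 47.04 FPKM. Sox11 was low throughout, with 0, 0.01, 0.06, 0.08 and 0.01 FPKM in sham, where a listed 0 can be a failed estimate. It read 1.44, 1.19, 1.46, 1.24 and 1.01 FPKM in IR, the only group in which every library reached 1 FPKM. The log2 difference was 1.13 (SE 0.11, limma adjusted p = 5.737e-08), and the scale understates the change of a gene this low. IRLac libraries read 1.04, 0.83, 0.51, 0.97 and 0.72 FPKM, above sham, and replicate 1 overlapped IR. IRLacz libraries read 0.25, 0.51, 0.91 and 0.57 FPKM, all between sham and IR.

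**Figure D2:**
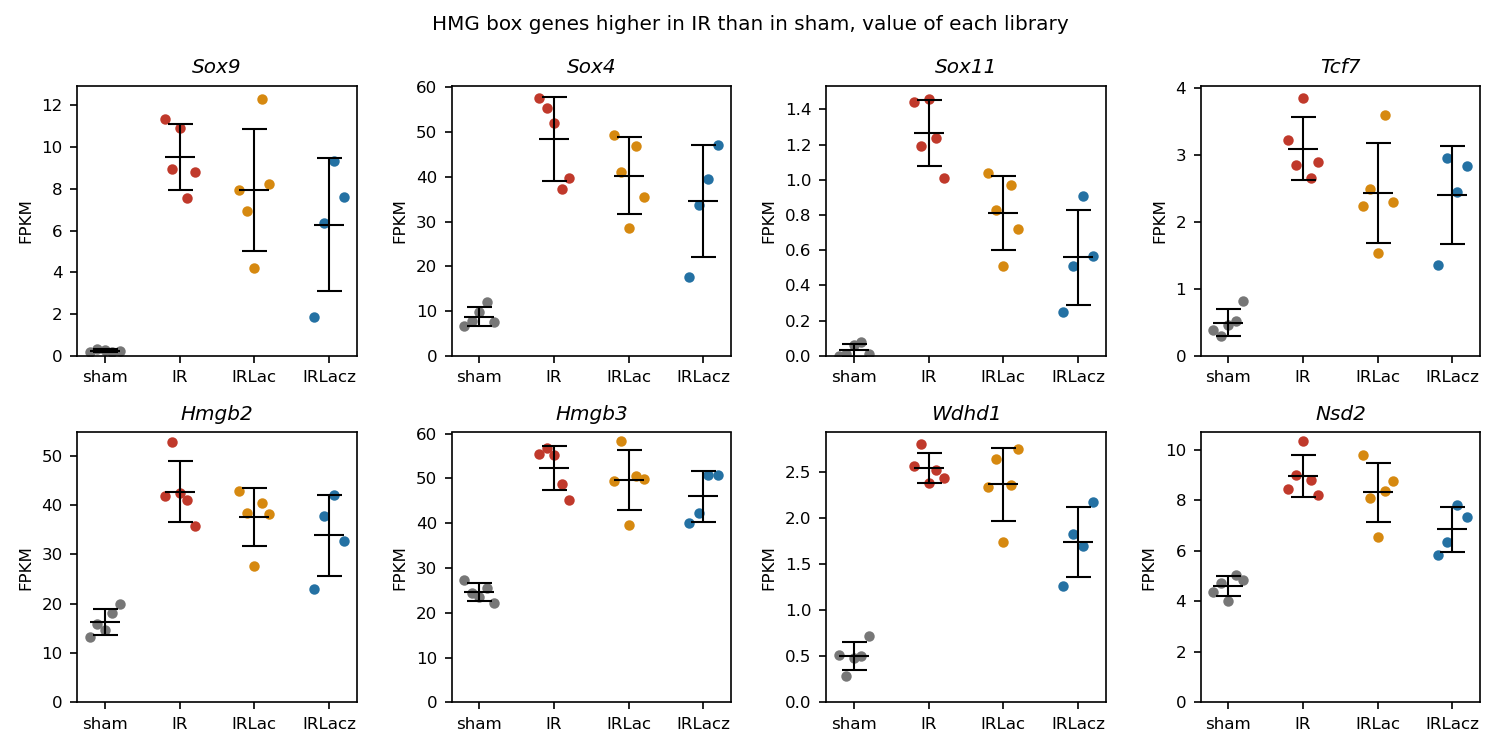
FPKM of 8 members in each library (points), with the group mean and SD (bars), on axes that start at 0. IR libraries of all 8 lie above the sham libraries, and IRLacz replicate 1, the leftmost blue point, is the lowest injured library for each gene except Hmgb3.

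Sox6 of the SOXD subgroup was lower in IR. This gene, which acts beside SOX9 in cartilage and represses an embryonic globin gene, read 4.18, 5.32, 4.89, 4.76 and 5.11 FPKM in sham and 3.78, 3.24, 3.06, 4.05 and 3.74 FPKM in IR. All IR libraries lay below all sham libraries, and Sox6 fell by 0.36 on the log2 scale (SE 0.07, limma adjusted p = 0.0002205). Across 9 other settings, none of which left out a sham or IR library, the difference was between -0.818 and -0.357. Sox6 was called lower in each. Its relative Sox13 was at 13.0 ± 0.626 FPKM in sham and 11.6 ± 1.52 FPKM in IR with overlapping libraries. Its limma adjusted p was 0.0493, and the call was lost in 9 of the 10 fits that left out 1 sham or IR library (adjusted p up to 0.14868).

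The SOXF genes Sox7, Sox17 and Sox18 act in the endothelium of vessels. Sox18 ranged from 12.49 to 21.53 FPKM in sham and from 15.19 to 22.16 FPKM in IR (limma adjusted p = 0.2559). Sox17 was at 5.46 ± 0.748 and 5.42 ± 0.54 FPKM (adjusted p = 0.9635 in limma), and Sox7 at 1.15 ± 0.117 and 1.21 ± 0.0826 FPKM (adjusted p = 0.6286 in limma). Sham and IR libraries overlapped for all 3, although Sox17 was called lower with median-ratio and quantile scaling, by differences of -0.29 and -0.44, and Sox7 with quantile scaling. Summed FPKM of 12 endothelial genes, none of them at 0, was between 266.4 and 364.6 in sham and between 331 and 375.6 in IR. Of these 12 genes 5 were higher and 3 lower, and the sign of their median difference (0.15) turned with median-ratio and quantile scaling.

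**Figure D3:**
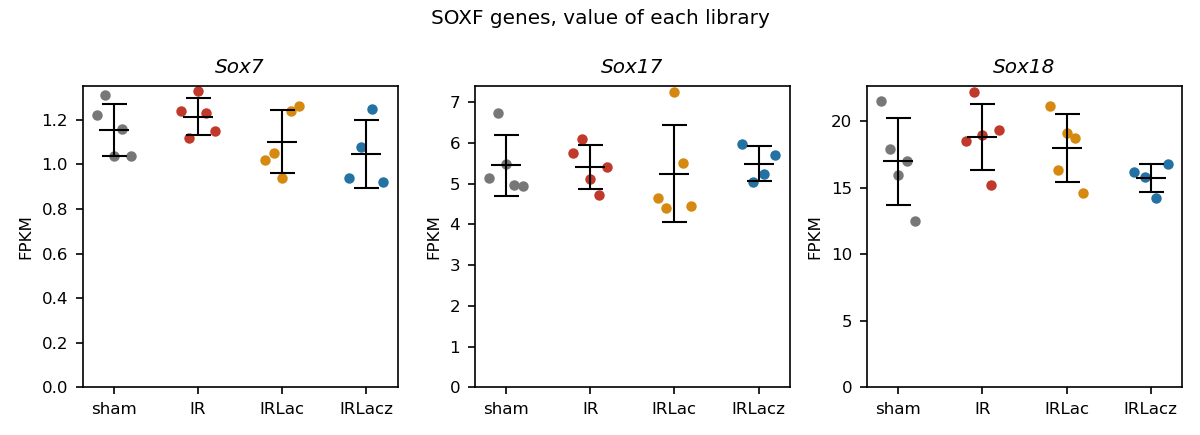
FPKM of Sox7, Sox17 and Sox18 in each library (points), with the group mean and SD (bars), on axes that start at 0. The 4 groups overlap for each gene, with Sox18 between 12.49 and 22.16 FPKM, well above Sox7.

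TCF proteins pair with β-catenin on DNA, and 3 of the 4 members grouped with them were higher in IR with the deposited values. Of these 3, only Tcf7 was higher with each scaling tried. The share of all entries higher with the deposited values was 57.0%. Tcf7, which encodes TCF1 and is abundant in T cells, read 0.39, 0.3, 0.46, 0.52 and 0.82 FPKM in sham and 3.22, 2.85, 3.85, 2.66 and 2.89 FPKM in IR. The groups were apart, with IR 1.45 higher on the log2 scale (SE 0.15, adjusted p = 1.698e-07 in limma). IRLac libraries read 2.24, 2.49, 1.53, 3.6 and 2.29 FPKM and IRLacz libraries 1.36, 2.96, 2.45 and 2.84 FPKM, all above sham. Tcf7l1, a TCF that mostly represses, rose from 4.45 ± 0.782 to 6.87 ± 0.383 FPKM, and Tcf7l2, the main TCF of intestinal epithelium, from 3.14 ± 0.461 to 4.32 ± 0.851 FPKM. Neither call held with quantile scaling, where the differences were 0.087 and -0.141, and that of Tcf7l2 was also lost with median-ratio scaling. Hbp1, a repressor of Wnt and cell cycle genes, was at 33.0 ± 3.11 and 30.9 ± 1.71 FPKM and was not called (adjusted p = 0.3784 in limma), but was called lower with median-ratio and quantile scaling. Lef1 did not reach the filter.

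T and NK cell genes, like Tcf7, were mostly higher in IR than in sham, as were 57.0% of all entries. Summed FPKM of 13 such genes was between 4.1 and 7.47 in sham and between 10.63 and 24.69 in IR, and 7 of the 9 tested were higher, or 5 with median-ratio and 2 with quantile scaling. The defining genes Cd28, Ncr1 and Klrb1c stayed below 1 FPKM in all libraries, and the part of these cells in the Tcf7 result was not tested.

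Other genes of the Wnt pathway were read from lists given by name. With the deposited values 57.0% of all entries were higher in IR and 18.6% lower, the background for each count. Of 10 tested Wnt ligand genes 7 were higher in IR and none lower in limma (median log2 difference 0.72, against 0.29 for all entries). Wnt4, a ligand of nephron formation, rose from 0.9 ± 0.329 to 9.82 ± 1.39 FPKM, and Wnt5a, a ligand that often acts without β-catenin, from 3.59 ± 0.48 to 7.27 ± 0.494 FPKM. Of 13 receptor genes 8 were higher and 2 lower (median 0.39), with the frizzled gene Fzd2 at 1.85 ± 0.121 and 4.59 ± 0.59 FPKM and Fzd1 at 21.4 ± 1.06 and 37.6 ± 2.26 FPKM. Secreted inhibitors rose in 6 of 8 cases (median 0.94), Dkk2 from 4.99 ± 0.527 to 12.01 ± 2.1 FPKM and Frzb from 10.6 ± 1.46 to 20.8 ± 1.51 FPKM. Of 16 genes for β-catenin and its cofactors 11 were higher and 2 lower (median 0.38, or -0.03 with quantile scaling), including the cofactor gene Pygo2 (10.7 ± 0.85 to 18.0 ± 1.18 FPKM). Ctnnb1, which encodes β-catenin itself, was at 144 ± 4.62 and 189 ± 4.63 FPKM and was called by limma with the deposited values but not with median-ratio scaling. Among 11 β-catenin target genes 8 were higher and 2 lower (median 0.58), and the feedback inhibitors Nkd2 (0.188 ± 0.0421 to 4.82 ± 0.44 FPKM) and Nkd1 (1.0 ± 0.233 to 6.16 ± 0.689 FPKM) had the smallest adjusted p. Scaling moved these splits. Receptor genes were 6 higher and 5 lower with median-ratio and 3 and 6 with quantile scaling, cofactor genes 4 and 4 and then 5 and 6, target genes 5 and 3 and then 5 and 5, and ligand genes 6 and 0 and then 5 and 3.

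Of 14 listed genes that SOX9 drives in cartilage, 2 passed the filter, and both were lower in IR in limma: Fmod, a small matrix proteoglycan, at 3.72 ± 0.642 FPKM in sham and 1.57 ± 0.346 FPKM in IR, and Col27a1, a fibrillar collagen, at 12.1 ± 1.64 and 7.44 ± 1.86 FPKM. Injured tubule genes rose in 16 of 16 cases (median 2.89), led by Havcr1, the kidney injury molecule, and Lcn2, which encodes lipocalin 2. Summed FPKM of 8 leukocyte and macrophage genes was between 67.89 and 89.35 in sham and between 897 and 1294 in IR, and that of 8 fibroblast genes between 64.84 and 91.3 and between 610.7 and 746. Their part in the rise of the SOX genes was not tested.

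HMGB proteins are abundant DNA benders, and all 4 members of this group were higher in IR, also with each scaling tried. Of all entries, 57.0% were called higher with the deposited values, and Gm21596 may share reads with Hmgb1. Hmgb2, which marks dividing cells, read 13.22, 15.85, 14.66, 18.16 and 19.86 FPKM in sham and 41.79, 52.71, 42.34, 40.96 and 35.68 FPKM in IR. The groups did not overlap, and the log2 difference was 1.33 (SE 0.15, limma adjusted p = 3.478e-07). IRLac libraries read 42.86, 38.37, 27.57, 40.48 and 38.14 FPKM and IRLacz libraries 22.98, 37.8, 42.04 and 32.71 FPKM, all above sham. Hmgb3, an X-linked relative found in progenitor cells, read 27.37, 24.46, 23.55, 25.64 and 22.19 FPKM in sham and 55.45, 56.73, 55.29, 48.82 and 45.26 FPKM in IR. This was 1.05 higher on the log2 scale (SE 0.10, adjusted p = 2.775e-08 in limma), without overlap. Its IRLac libraries read 49.44, 58.43, 39.53, 50.49 and 49.97 FPKM and its IRLacz libraries 40.15, 42.2, 50.82 and 50.71 FPKM, all above sham.

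Hmgb1 was the most abundant member in each group and rose less, from 69.8 ± 5.49 to 101 ± 5.45 FPKM (log2 difference 0.53, SE 0.07, limma adjusted p = 1.343e-06). Gm21596 rose from 16.6 ± 4.28 to 31.0 ± 5.57 FPKM, but its best match is the HMGB1 protein at 100% identity. Both values are uncertain, since reads of near-identical copies can be split between them and their handling is not given in the sources used here. Of 6 tested genes for HMGB1 receptors and partners 5 were higher in IR and 1 lower, or 3 and 1 with quantile scaling. Over all entries 57.0% were higher and 18.6% lower with the deposited values. Among the higher ones were Tlr2 (1.35 ± 0.262 to 14.2 ± 2.66 FPKM) and Tlr4 (0.4 ± 0.12 to 1.9 ± 0.157 FPKM), receptors of innate immunity.

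The 5 chromatin and replication members described were all higher in IR with the deposited values, and Wdhd1, Nsd2, Ssrp1 and Hmg20b with each scaling tried. The background was 57.0% of all entries called higher with the deposited values. Wdhd1, a scaffold of the DNA replication fork, read 0.51, 0.29, 0.48, 0.5 and 0.72 FPKM in sham and 2.56, 2.8, 2.38, 2.52 and 2.43 FPKM in IR. Its IR libraries lay close together and far from sham, 1.24 higher on the log2 scale (SE 0.10, adjusted p = 8.527e-09 in limma). Nsd2, a histone methyltransferase, read 4.38, 4.72, 4.02, 5.04 and 4.85 FPKM in sham and 8.44, 9.01, 10.37, 8.79 and 8.2 FPKM in IR, or 0.83 higher on the log2 scale (SE 0.09, adjusted p = 3.369e-07 in limma). Ssrp1, a subunit of the FACT histone chaperone, rose from 23.0 ± 1.36 to 38.8 ± 1.1 FPKM. Hmg20b, a subunit of a histone demethylase complex, rose from 33.2 ± 4.26 to 54.1 ± 5.83 FPKM. Pbrm1, the bromodomain subunit of the PBAF remodeller, rose from 5.87 ± 0.44 to 8.78 ± 0.385 FPKM. The Pbrm1 call was lost with quantile scaling (0.093).

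Replication and mitosis genes rose in 15 of 15 cases (median 2.13), among them the nucleotide synthesis gene Rrm2 (1.71 ± 0.199 to 16.6 ± 3.33 FPKM), and Ccnb1, which encodes a mitotic cyclin (0.292 ± 0.0536 to 6.49 ± 1.16 FPKM). Of 18 BAF and PBAF genes 17 were higher and 1 lower (median 0.51). These counts became 10 and 1 with median-ratio and 11 and 2 with quantile scaling. Over all entries 57.0% were called higher with the deposited values, with a median of 0.29. The ATPase gene Smarca2 fell from 67.8 ± 7.89 to 33.9 ± 1.7 FPKM, and Brd7 rose from 17.0 ± 0.661 to 22.5 ± 0.695 FPKM, a call lost with median-ratio scaling. RNA polymerase I genes, which act with the HMG box factor Ubtf, were higher in 15 of 16 cases (median 0.49), led by Taf1d (5.75 ± 1.1 to 14.99 ± 1.36 FPKM) and nucleolin, Ncl (34.2 ± 3.54 to 67.1 ± 4.15 FPKM); 9 were higher with median-ratio scaling, and 7 higher and 2 lower with quantile scaling. The entry next below the identity rule was the BAF subunit gene Smarce1 at 91.5%, with group means of 15.5, 29.4, 29.3 and 27.2 FPKM in sham, IR, IRLac and IRLacz, and the one after it was Ubtf, far lower at 69.7%. Just inside were Tcf7l2 at 95.4% and Bbx at 96.8%.

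Tfam, which packages mitochondrial DNA and starts its transcription, was lower in IR. It read 21.55, 18.88, 17.68, 17.57 and 18.04 FPKM in sham and 16.8, 14.58, 14.88, 16.34 and 15.67 FPKM in IR. The groups did not overlap, and the fall was 0.24 on the log2 scale (SE 0.07, limma adjusted p = 0.003504). Of 15 other genes of mitochondrial DNA upkeep and transcription 4 were higher and 6 lower (median -0.18), and with median-ratio or quantile scaling 0 were higher and 11 lower. Lonp1, a mitochondrial protease that degrades TFAM, fell from 82.3 ± 2.81 to 59.8 ± 3.4 FPKM, and Top1mt, a mitochondrial topoisomerase, from 19.2 ± 2.06 to 13.3 ± 1.8 FPKM. All 8 proximal tubule markers were lower in IR too, and their part in the Tfam result was not tested.

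The TOX genes were divided. Tox4, part of a phosphatase complex on chromatin, rose from 10.6 ± 0.461 to 14.03 ± 0.953 FPKM, a call lost with median-ratio and quantile scaling. Tox3, a coactivator studied in neurons and mammary epithelium, was at 2.96 ± 0.602 FPKM in sham and 2.12 ± 0.397 FPKM in IR (log2 difference -0.34, limma adjusted p = 0.01966). The libraries overlapped, and the adjusted p was 0.068608 without sham replicate 2 and 0.052214 without IR replicate 3. Among the remaining members, Cic, a repressor held in check by growth factor signalling, rose from 12.02 ± 0.995 to 21.6 ± 0.67 FPKM with no overlap. Hmgxb4 rose from 3.98 ± 0.657 to 5.36 ± 0.552 FPKM and Bbx from 3.58 ± 0.572 to 4.71 ± 0.306 FPKM, but with quantile scaling both differences were below 0 and Bbx was called lower. Hmgxb3 (9.48 ± 0.21 and 9.95 ± 0.754 FPKM) and the mismatch repair gene Pms1 (1.116 ± 0.376 and 1.17 ± 0.156 FPKM) were not called, and both were called lower with quantile scaling.

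**Figure D4:**
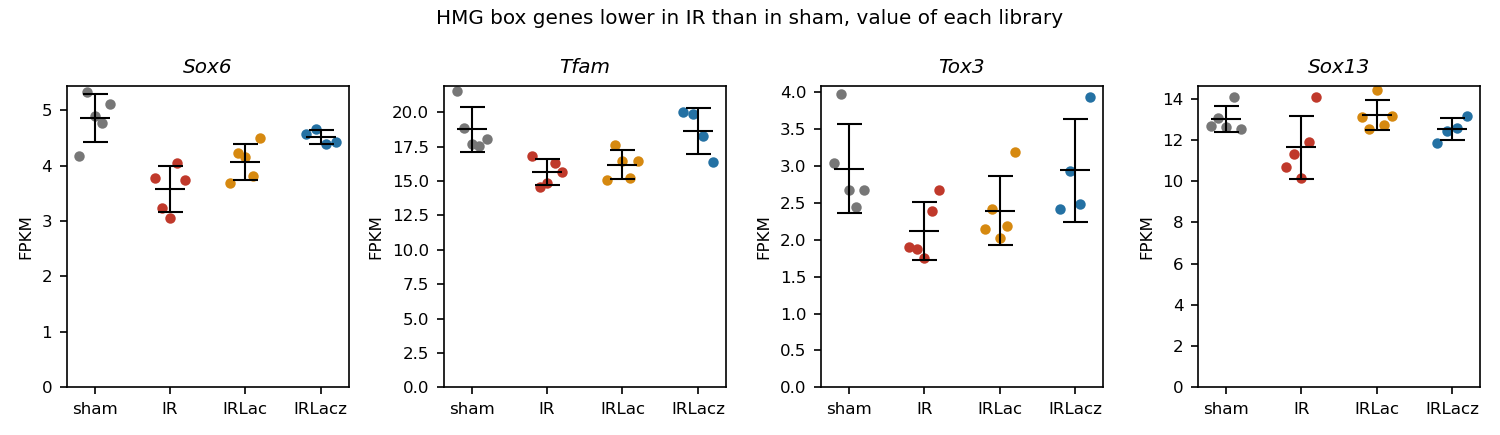
FPKM of Sox6, Tfam, Tox3 and Sox13, the 4 members called lower in IR, in each library (points), with the group mean and SD (bars), on axes that start at 0. For Sox6 the 4 IRLacz libraries, between 4.38 and 4.66 FPKM, lie above all IR libraries and inside the sham range of 4.18 to 5.32 FPKM.

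IRLacz was set against IR to ask how the family differed in injured kidneys after Lactobacillus casei Zhang. In limma 2 members were higher in IRLacz (Sox6 and Tfam) and 3 were lower (Sox11, Nsd2 and Wdhd1), against 5.39% of all entries higher and 7.92% lower. Counts of 2 and 3 among 29 lay near these backgrounds, and the members' median difference was -0.07 against -0.004 for all entries. All libraries lay above IR for 1 member (Sox6) and below IR for 3, against 5.33% and 6.85% of entries. Over all entries, 733 were higher and 1076 lower, and these counts moved with single libraries. Without IR replicates 1 to 5 in turn they were 451 and 638, 354 and 534, 231 and 375, 703 and 998, and 890 and 1260. Without IRLacz replicates 1 to 4 in turn they were 656 and 471, 269 and 505, 601 and 982, and 805 and 1392. IR enters both this comparison and the one with sham, so the opposite signs of these 5 members in the 2 comparisons are not independent of each other.

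Sox11 had the smallest adjusted p of the family. Its IRLacz libraries, from 0.25 to 0.91 FPKM, all lay below its IR libraries, from 1.01 to 1.46 FPKM. The difference was -0.55 (SE 0.12, limma adjusted p = 0.008767), and it was called in all 9 fits that left out 1 IR or IRLacz library (adjusted p from 0.0054279 to 0.031429). Sox11 passed the filter through the 5 IR libraries and 1 IRLac library; with no filter the limma adjusted p was 0.0087888.

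Nsd2 read 5.85, 6.36, 7.83 and 7.35 FPKM in IRLacz, below all 5 IR libraries (difference -0.35, SE 0.10, limma adjusted p = 0.02893). Wdhd1 read 1.26, 1.83, 1.7 and 2.17 FPKM, also below all IR libraries (difference -0.38, SE 0.11, limma adjusted p = 0.02981). Both stayed above the sham range. In IRLac, Nsd2 read 9.79, 8.09, 6.54, 8.37 and 8.78 FPKM and Wdhd1 2.33, 2.64, 1.74, 2.36 and 2.75 FPKM, overlapping IR. Replication and mitosis genes were lower in IRLacz in 9 of 15 cases and higher in none by limma (median -0.62, against -0.004 for all entries), with Ccnb1 at 3.26 ± 0.808 FPKM. Without IRLacz replicate 1, a setting chosen for the lists after seeing the data, 5 of the 15 were lower (median -0.383).

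Sox6 read 4.57, 4.66, 4.38 and 4.43 FPKM in IRLacz, above all IR libraries (difference 0.27, SE 0.08, limma adjusted p = 0.02756), and 3.68, 4.22, 4.15, 3.81 and 4.49 FPKM in IRLac. Tfam read 20.01, 19.83, 18.29 and 16.41 FPKM in IRLacz, where replicate 4 overlapped IR (difference 0.23, SE 0.07, limma adjusted p = 0.03929). In IRLac it read 15.09, 17.64, 16.47, 15.22 and 16.46 FPKM. Polg2, the accessory subunit of the mitochondrial DNA polymerase, was 1 of 2 genes of its list that were higher, at 5.41 ± 0.842 against 3.73 ± 0.41 FPKM (limma adjusted p = 0.01034). Without IRLacz replicate 1 the limma adjusted p was 0.088785 for Nsd2, 0.096616 for Wdhd1, 0.056829 for Sox6, 0.10599 for Tfam and 0.024963 for Sox11. The Nsd2, Sox6, Wdhd1 and Tfam calls were also lost without IR replicate 2, IR replicate 3 or IRLacz replicate 2, those of Wdhd1 and Tfam without IRLacz replicate 3, and that of Wdhd1 without IR replicate 1. With only the IR and IRLacz libraries in the model, Sox11 was the 1 member called (adjusted p = 0.041838 in limma).

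Sox9 was not called in this comparison. Its difference was -0.66 (SE 0.28, limma adjusted p = 0.1223), and without IRLacz replicate 1 it was -0.265 (adjusted p = 0.42658 in limma). Sox4 differed by -0.54 (SE 0.23, limma adjusted p = 0.1247), by -0.257 without IRLacz replicate 1 and by -0.713 without IRLacz replicate 4, where the limma adjusted p was 0.048936. Hmgb2 (-0.35, adjusted p = 0.1486 in limma) and Tox3 (0.33, adjusted p = 0.1032 in limma) also did not pass, and without IRLacz replicate 1 the Hmgb2 difference was -0.178 (limma adjusted p = 0.45518). The remaining HMGB, SOXF and TCF/LEF members differed from IR by between -0.413 (Gm21596) and 0.126 (Hbp1), with none called by limma. Without IRLacz replicate 1 the range was -0.249 (Sox18) to 0.192 (Hbp1), with Gm21596 at -0.1 and Tcf7 at -0.122 in place of -0.29. An unadjusted p under 0.05 was found for 9 of the 29 members and 4171 of all 13594 entries, a similar share.

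**Figure D5:**
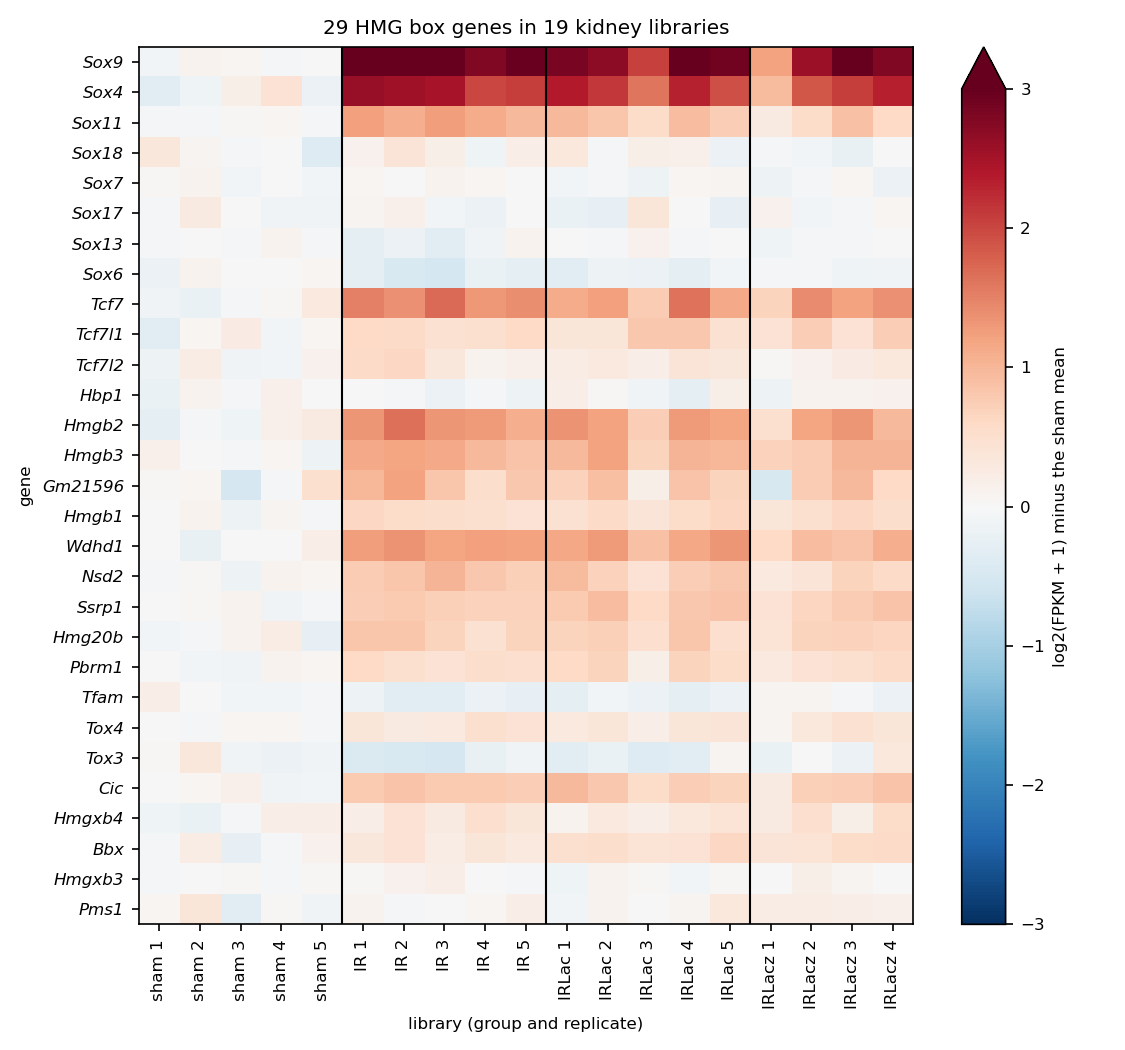
Log2(FPKM + 1) of the 29 members in each of the 19 libraries minus the sham mean of the gene; colours stop at 3 and black lines part the groups. Sox9 and Sox4 are darkest in the injured libraries, and IRLacz replicate 1 is paler than the other injured libraries for these 2 genes and for Hmgb2.

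In other lists, the Wnt ligand gene Wnt2 (0.973 ± 0.313 in IRLacz against 2.08 ± 0.522 FPKM in IR), the inhibitor gene Frzb (15.3 ± 2.14 against 20.8 ± 1.51 FPKM), the target gene Nkd2 (2.44 ± 0.678 against 4.82 ± 0.44 FPKM), the keratin gene Krt8 (196 ± 50 against 280 ± 39.4 FPKM) and the polymerase I cofactor gene Nolc1 (12.1 ± 0.96 against 16.4 ± 1.66 FPKM) were lower in IRLacz. The Wnt coreceptor gene Lrp6 was higher (17.1 ± 0.48 against 14.2 ± 1.25 FPKM). By limma, 1 of 10 Wnt ligand, 1 of 8 inhibitor, 2 of 11 target, 2 of 16 injured tubule, 5 of 16 polymerase I and 1 of 18 BAF and PBAF genes were lower, the last being the ATPase gene Smarca4, and 3 of 13 receptor genes were higher. Of all entries 7.92% were lower and 5.39% higher, so that 1 gene of a list lies near the background. Without IRLacz replicate 1, the counts were 0 for Wnt ligand, inhibitor, receptor, injured tubule and BAF and PBAF genes, 1 for polymerase I genes and 2 for target genes. No gene was called among 16 for β-catenin and its cofactors, 6 HMGB1 receptors or 2 cartilage targets. Summed leukocyte genes were between 382.6 and 840.7 FPKM in IRLacz, below all IR libraries, and summed fibroblast genes between 284.9 and 438.4 FPKM, also below. Summed thick limb and distal tubule genes were between 1831 and 3063 FPKM in IRLacz, above the IR range of 969.2 to 1726 FPKM, with 1 of 7 called higher (median difference 0.93). Summed collecting duct genes were between 478.9 and 1020 FPKM, overlapping the IR range of 346.8 to 752.9 FPKM, with 4 of 8 called higher (median 0.59), or 1 of 8 without IRLacz replicate 1. Their part in the member differences was not tested.

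For IRLac against IR no member was called by limma, where 0.0% of entries were higher and 0.00736% lower. Without IR replicate 5, 6 entries were higher and 110 lower, and still no member was called. At an unadjusted p under 0.05, 2 members and 786 of all entries differed: Sox11 by -0.33 (adjusted p = 0.5038 in limma) and Sox13 by 0.17 (adjusted p = 0.7169 in limma). Sox9 differed by -0.29 (SE 0.27) and Sox4 by -0.26 (SE 0.22), and without IRLac replicate 3 by -0.108 and -0.151. For IRLacz against IRLac no member was called by limma either, against 0.00736% of entries higher and 0.0147% lower. Here 3 members and 2171 entries had an unadjusted p under 0.05: Wdhd1 (-0.30), Nsd2 (-0.24) and Tfam (0.19), with limma adjusted p of 0.199, 0.2433 and 0.2188. None of the 3 passed the adjusted threshold. The background of this comparison rested on 1 library: without IRLac replicate 3, 119 entries were higher and 371 lower, and still no member was called, with a smallest limma adjusted p of 0.052238 for Wdhd1. Sox9 differed by -0.38 between IRLacz and IRLac, by -0.556 without IRLac replicate 3 and by 0.022 without IRLacz replicate 1, none of them called by limma.

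Of the 17 members left out, 14 were in the expression table below the filter and 3 (Sry, Hmgb4 and an unnamed locus) had no entry there. The 14 were Sox1, Sox5, Sox8, Sox10, Sox14, Sox15, Sox21, Sox30, Lef1, Tox, Tox2, Ubtfl1 and 2 unnamed loci. An unnamed locus came closest, with 1 FPKM or more in 3 libraries and a highest value of 1.85 FPKM. Among named genes the highest value was 0.83 FPKM, for Sox8. Of the 29 members, 23 reached 1 FPKM in all 19 libraries, and just inside the filter was Sox11, which reached it in 6. These 29 members lay on 15 chromosomes, with at most 4 on any.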

How the data were processed

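Kidney RNA of 19 libraries was analysed from a deposited table of FPKM values made by the authors, 1 column per library; per the submitters' processing notes the tools included HISAT and StringTie 1.0.4 and the build was mm9. The annotation, strand, read sharing and read depth were not given in the sources used here. The second deposited table, also the authors', gives the percent identity of each predicted factor's protein to its best match, and was used for family membership. Of the members that passed, 1 is not reported here. RefSeq gave symbols for 18238 entries. FPKM totals were 545590 to 584798 per library. Low values of 56 genes moved partly in steps. Of the values above the first step, 60.67% lay within 0.1 of a whole step, where 20% would without steps. Relative depth, read only from values near the smallest of each gene, was between 0.984 and 1.009. That choice of values keeps the estimates close together, so they cannot show that depth was equal. Reads were not recovered. Since FPKM is not a count, log2(FPKM + 1) was fitted with limma 3.58.1 in R 4.3.3 (mean-variance trend, 4 groups in 1 model, 15 residual degrees of freedom) over the 13594 entries that reached 1 FPKM in 4 or more libraries, with Benjamini-Hochberg adjustment over them and a threshold of 0.05. The limma fit was tried on simulated data in which few entries changed and no shift common to all entries was added. It therefore did not test a wide shift like that between sham and IR. Promoters came from RefSeq, GRCm38.p6, a build other than that of the values. Values in every library were given for Sox9, for members called with a log2 difference of at least 1 in IR against sham and for members called in another comparison; from each list the 2 genes with the smallest adjusted p in IR against sham and the 1 with the smallest in IRLacz against IR were named. Members and lists were chosen with earlier results of these data known. Alternatives were pseudocounts of 0.1 and 0.5, no filter, a mean of at least 5 FPKM, median-ratio and quantile scaling, TPM, only the 2 groups compared, a replicate block, and leaving out each library.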

Additional observations from a re-analysis of the deposited data

Results flagged for a closer look

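In 1 of 116 groups of a member's values, a library lay far from the others of its group. Hbp1, a repressor of Wnt and cell cycle genes, read 29.33 FPKM in IRLacz replicate 1, below the 3 other IRLacz libraries, which lay between 35.19 and 35.87 FPKM. Chance gives such a gap in about 1 of 20 groups.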

How the results depend on the processing

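For IR against sham, the 19 members called higher became 13 and the 4 called lower 10 with quantile scaling, and 15 and 7 with median-ratio scaling. The count called lower was 2 with a mean of at least 5 FPKM and 2 to 4 when a library was left out, with 2 without sham replicate 2 or IR replicate 3. For all entries, 7747 higher and 2529 lower became 4830 and 4721 with median-ratio scaling and 4222 and 5294 with quantile scaling. With quantile scaling, IR minus sham turned to -0.16 for Bbx, -0.311 for Hmgxb3, -0.115 for Hmgxb4, -0.481 for Pms1, -0.495 for Sox7 and -0.141 for Tcf7l2. With median-ratio scaling it turned to -0.244 for Hmgxb3. These scalings moved the median of all entries, as given with the counts. For IRLacz against IR, the 2 called higher became 1 with a mean of at least 5 FPKM (10 fewer members tested), 1 with median-ratio scaling, 0 with only the 2 groups compared, 1 with the replicate block and 0 without IRLacz replicate 1 and IRLac replicate 3, a setting chosen after seeing the data. The 3 called lower became 1 with a mean of at least 5 FPKM, 1 with only the 2 groups and 1 with the replicate block. The Wdhd1 call was also lost with TPM and with a pseudocount of 0.1 (limma adjusted p of 0.051977 and 0.068714). Leaving out a library gave 0 to 2 higher and 1 to 4 lower, with 0 and 1 without IR replicate 2, IR replicate 3, IRLacz replicate 1 or IRLacz replicate 2. The remaining causes were not tested. For IRLac against IR and IRLacz against IRLac the count was 0 in every setting. Deviations of same-numbered libraries correlated between -0.394 and 0.23, so the numbers were not taken as pairs. Of the single-gene values under alternatives, 2083 kept their direction and side of the threshold, 54 lost the call, 5 gained one, 7 turned with a call in either setting and 73 turned with a call in neither. Read depth is unknown, so no counting error can be given, and the levels of Sox11 and of Sox9 in sham are near the 2 decimals of the table.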
